A study of Mus musculus with 46 samples.

Results

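Matrix proteases and their inhibitors were followed by mRNA level in mouse liver after one dose of the hepatotoxin carbon tetrachloride (CCl4). The members are 9 named genes, chosen with earlier results of these data known: the matrix metalloproteinases Mmp12, Mmp13, Mmp14 and Mmp2, the urokinase plasminogen activator Plau with its receptor Plaur, and the tissue inhibitors of metalloproteinases Timp1, Timp2 and Timp3. They are 9 of the 18193 genes that the arrays named unambiguously, and 8 of the 13239 genes that passed the filter on low values. Livers came from male C57BL/6N mice aged 8 to 10 weeks. They were taken 2 h, 8 h, 1 d, 2 d, 4 d, 6 d, 8 d and 16 d after a single intraperitoneal dose of 1.6 g/kg CCl4 in olive oil, with 5 arrays at each time up to 8 d and 6 arrays at 16 d. The 5 control arrays are from mice described as untreated, so injection and oil differ from control together with CCl4 at every time. The labels do not say whether the numbered arrays of a group came from separate animals, and p-values therefore measure the spread between arrays, which may be technical.

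Metalloproteinases cut the proteins of the extracellular matrix, and most are secreted as inactive precursors. They are held in check by the TIMP proteins, which bind the active site of the enzyme. Plasmin, released from plasminogen by urokinase bound to its receptor, degrades fibrin and can activate metalloproteinase precursors. In the liver these systems act while dead parenchyma is cleared and scar matrix is laid down and removed.

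For each gene the probe set of highest average signal was used, on the log2 scale of the deposited values, where a difference of 1 is a doubling, and its other probe sets served as a check. Differences are a time minus control and carry standard errors after ±, from a limma fit over all 46 arrays. A gene was called changed at a Benjamini-Hochberg adjusted p under 0.05. The median of the whole table, 5.56, served as a mark for low signal, although it is not a detection limit. Across all arrays Mmp12 (mean 5.42), Mmp13 (3.76) and Plau (5.14) lay below it, as did 10 of the members' 21 probe sets. Mmp12 exceeded the median on 12 arrays, Mmp13 on 7 and Plau on 0, so Plau was not tested. Mmp12 and Mmp13 passed the filter only through arrays taken at 1 d to 4 d, so their difference from control was built into the filter and counts that include them are descriptions only. With the filter dropped, the limma adjusted p of Mmp12 was 1.50e-08 at 1 d, 5.86e-07 at 2 d and 0.0226 at 4 d. That of Mmp13 was 4.68e-08 at 1 d and 0.000332 at 2 d. Signals of different probe sets are not comparable as amounts, and every comparison below is within a probe set.

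Within groups, pairs of arrays had correlations over all genes of 0.947 to 0.993. At 2 d arrays 4 and 5 stood apart, first noticed on Mmp12, Mmp13 and Timp1, and they correlated at 0.989 with each other, against 0.969 to 0.976 with arrays 1 to 3 of that time. At 1 d arrays 1 and 2 stood apart, correlating at 0.947 to 0.970 with each other and with the other arrays of that time, which correlated at 0.991 to 0.993 among themselves. Most member values at 1 d and 2 d that move with these arrays are given with and without them. Without arrays 1 and 2 the 1 d difference from control was 3.48 for Mmp12 and 3.24 for Mmp13. With all arrays these differences were 3.24 and 3.01. Because arrays 4 and 5 at 2 d were chosen for their Mmp12, Mmp13 and Timp1 values, p-values of these genes without them are descriptions only. The labels name no batch. Of the marker lists, hepatocyte genes were abundant on every array, with a list mean no lower than 13.44, and the mean of 4 exocrine pancreas genes stayed between 6.15 and 6.52.

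Mmp12, Mmp13, Mmp14 and Timp1 rose within the first day and peaked at 1 d or 2 d, Plaur rose earlier and peaked at 8 h, and Mmp2 was slightly lower at 1 d and 2 d. Timp3 did not pass the test at any time, and Timp2 gave different answers from different probe sets. Of the 8 members tested, 0 were called at 2 h, when 26.3% of all genes tested were called. At 8 h 1 member was called, beside 41.9% of all genes, and it was higher, as were 17.7% of all genes (24.2% were lower). The number of members called was 6 after 1 d (50% of all genes), 5 after 2 d (40.1%) and 2 after 4 d (6.95%). It was 0 for 6 d (0.0227%), for 8 d (0.144%) and for 16 d (1.51%). The 6 calls at 1 d were 5 higher and 1 lower, where 25% of all genes were called higher and 25.1% lower. The 5 calls at 2 d were 4 higher and 1 lower, against 21.1% and 18.9% of all genes. Both calls at 4 d were higher, against 4.74% of all genes higher and 2.21% lower. All arrays lay beyond all control arrays for 1 member at 8 h, 4 members at 1 d and 5 members at 2 d, and for 32.9%, 31.8% and 26.4% of all genes tested. The median difference over all 9 members, Plau included, was 0.53 for 1 d (all genes tested, -0.04), 0.28 for 2 d (-0.03) and 0.16 for 4 d (-0.01). By an F-test over the 8 times 7 of the 8 members were called, as were 83.4% of all genes tested.

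**Figure D1:**
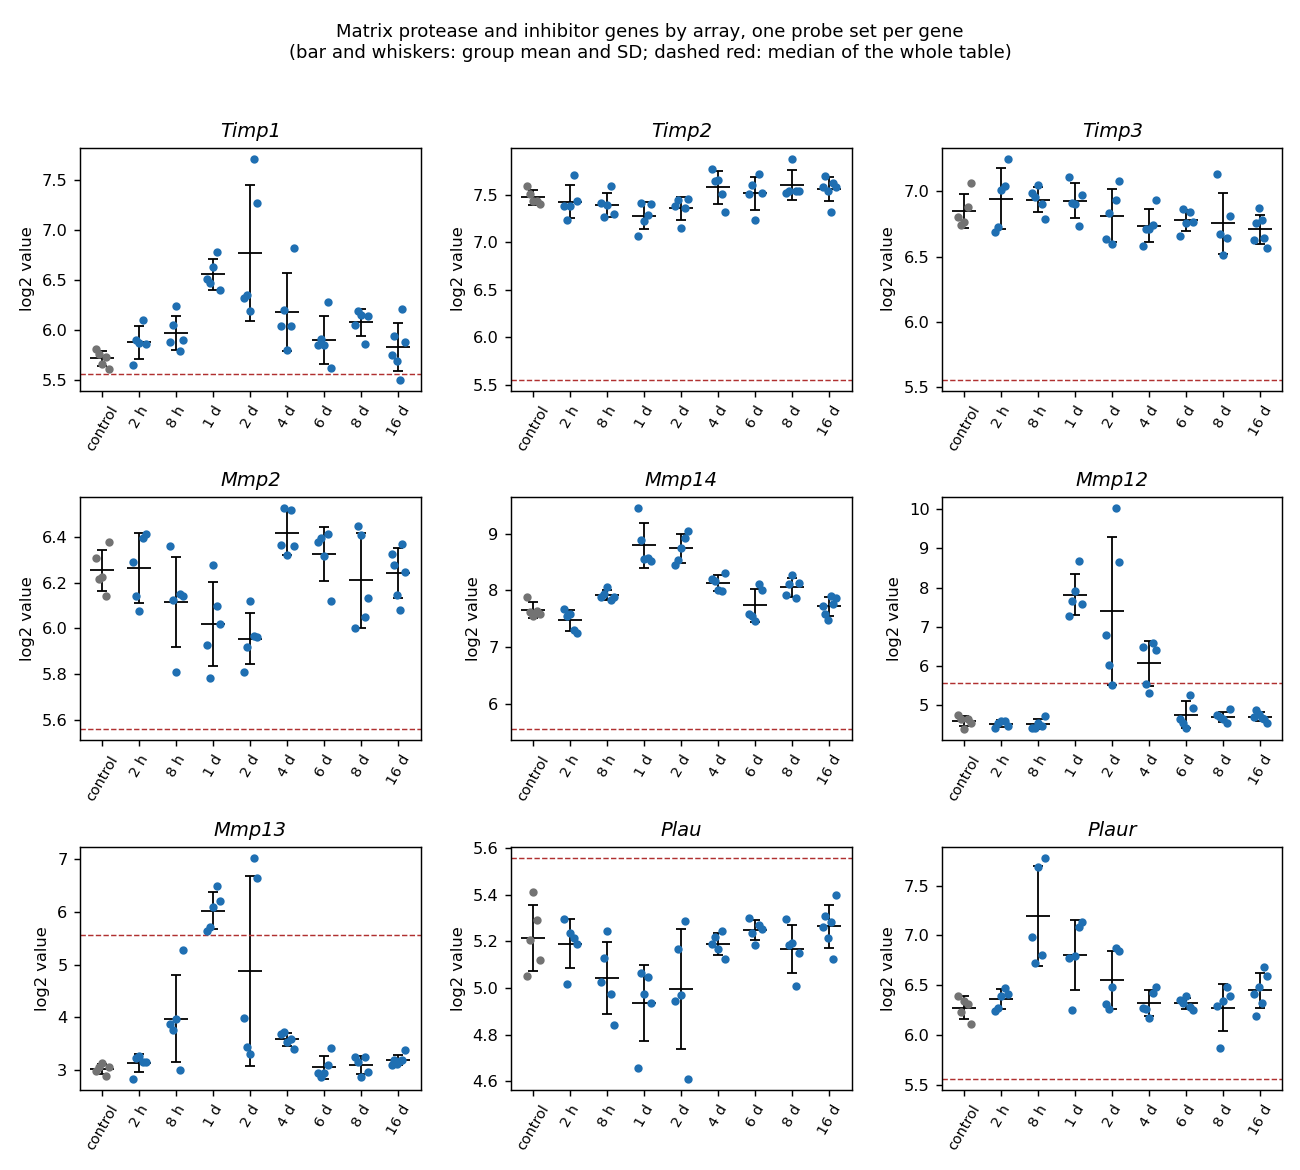
Log2 value of each of the 9 genes on every array (points), by group from control (grey) through the 8 times after CCl4 (blue), with the group mean and SD as black bars and the table median of 5.56 as a dashed line. Mmp12 and Mmp13 cross the median only at 1 d, 2 d and, for Mmp12, 4 d, while Plau stays below it on every array.

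**Figure D2:**
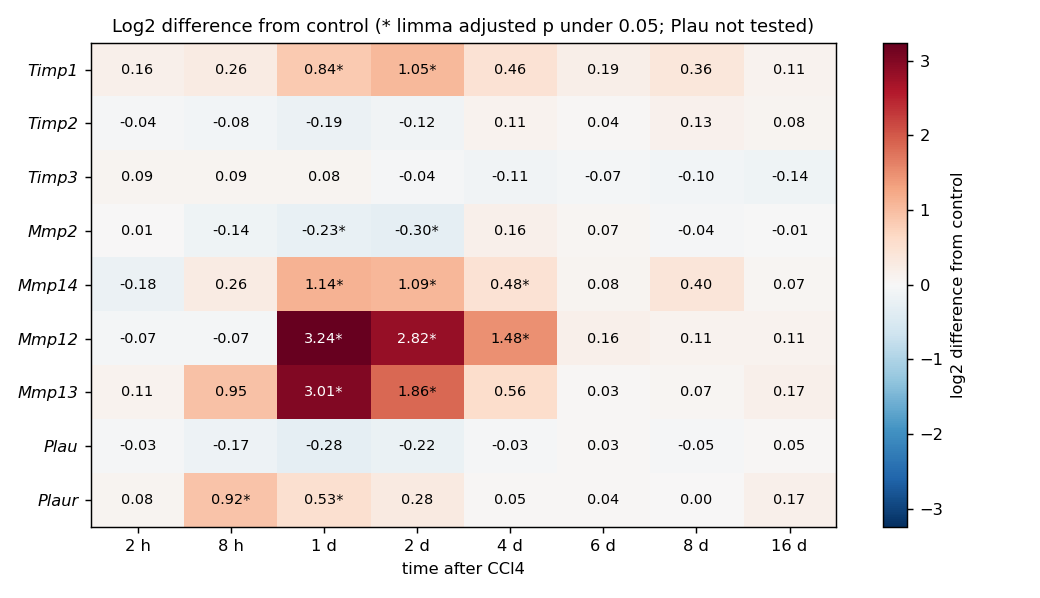
Log2 difference from control of each gene at each time, with red for higher, blue for lower and an asterisk where the limma adjusted p was under 0.05. The largest differences are those of Mmp12 (3.24) and Mmp13 (3.01) at 1 d, and 0 members are called from 6 d on.

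Mmp12, the macrophage metalloelastase, which cleaves elastin, showed the largest difference of the 9 genes. At 1 d its arrays read 7.27, 7.64, 7.92, 8.67 and 7.58, against 4.74, 4.63, 4.37, 4.62 and 4.53 in control. The 2 h and 8 h arrays lay between 4.39 and 4.71, within or close to the control range, so the difference appeared between 8 h and 1 d. Mmp12 was higher than control by 3.24 ± 0.41 at 1 d (9.44-fold, limma adjusted p = 1.52e-08) and by 2.82 ± 0.41 at 2 d (7.04-fold, adjusted p = 5.92e-07). At 4 d the arrays read 6.47, 5.54, 5.30, 6.57 and 6.39, still all above control, and the difference was 1.48 ± 0.41 (2.78-fold, adjusted p = 0.0194). The 4 d arrays thus form a high set of 3 and a low set of 2 without reaching down to any control array. By 6 d the arrays read 4.62, 4.52, 4.39, 5.24 and 4.92 and overlapped control, with a difference of 0.16 ± 0.41. The call at 4 d ended when array 1, 4 or 5 of that time (adjusted p = 0.0609, 0.0578 and 0.0536) or control array 3 (0.0507) was left out.

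The spread of Mmp12 at 2 d was wider than at any other time. Its arrays 1 to 5 read 6.79, 6.01, 5.49, 10.03 and 8.65, with an SD of 1.90 against 0.53 at 1 d. Arrays 4 and 5 were high, and arrays 1 to 3 lay within or just above the range of 4 d. With arrays 4 and 5 left out, Mmp12 at 2 d was higher than control by 1.52 (limma adjusted p = 3.99e-06), and it was lower than at 1 d by 1.72, written as -1.72 for 2 d minus 1 d (adjusted p = 2.89e-07), where the fit with all arrays gave -0.42 (adjusted p = 0.484). The difference of 4 d minus 2 d was -1.34 with all arrays (adjusted p = 0.0116) and -0.04 without those arrays (adjusted p = 0.919).

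Mmp13, the collagenase that cuts fibrillar collagen and acts as the main interstitial collagenase of the mouse, followed a similar course with an earlier start on most arrays. At 8 h its arrays read 3.87, 3.76, 3.97, 2.99 and 5.27, against 2.97, 3.06, 3.13, 2.87 and 3.05 in control. Arrays 1, 2, 3 and 5 exceeded every control array and array 4 did not. The difference at 8 h was 0.95 ± 0.40 and missed the threshold (limma adjusted p = 0.0541). With each 8 h or control array left out in turn it ran from 0.63 to 1.20, with adjusted p from 0.0187 to 0.239. It was called only without array 4 of 8 h (1.20, adjusted p = 0.0187). All 8 h arrays lay below the table median.

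At 1 d the Mmp13 arrays read 5.63, 5.71, 6.10, 6.48 and 6.20, all above the table median and far above control. Mmp13 was higher than control by 3.01 ± 0.40 at 1 d (8.04-fold, limma adjusted p = 4.61e-08). At 2 d the arrays read 3.97, 3.44, 3.30, 7.03 and 6.64. Arrays 4 and 5 exceeded the highest array of 1 d, whereas arrays 1 to 3 had come down to the range of 8 h. The 2 d difference from control was 1.86 ± 0.40 (3.63-fold, adjusted p = 0.000298) with all arrays and 0.56 (adjusted p = 0.0736) without arrays 4 and 5. At 4 d the arrays read 3.68, 3.72, 3.53, 3.58 and 3.39, and each lay above every control array, as in 10.2% of all genes tested in either direction. The difference at 4 d was 0.56 ± 0.40 (adjusted p = 0.491) with the spread shared over all groups, and the adjusted p was 0.000251 in a fit of those groups alone. From 6 d on the Mmp13 arrays lay between 2.86 and 3.42, overlapping control.

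Both genes lie on chromosome 9 in a run of 10 metalloproteinase genes of the RefSeq annotation, in the order Mmp13, Mmp12, Mmp1b, Mmp3, Mmp1a, Mmp10, Mmp8, Mmp27, Mmp20 and Mmp7. Of these genes 9 were on the array and 4 were tested. Next to the rises of Mmp13 and Mmp12, Mmp10 (stromelysin 2) was lower than control by 0.36, a difference of -0.36 ± 0.11 at 2 d (limma adjusted p = 0.00648). The Mmp10 signal was low, with means over all arrays (5.517) and in control (5.556) below the table median (5.558). It exceeded that median on 22 of the 46 arrays. Mmp7 (matrilysin) had a difference of -0.35 ± 0.06 at 1 d (adjusted p = 1.97e-05). Mmp1b, Mmp3, Mmp1a, Mmp8 and Mmp20 stayed below the table median on all 46 arrays.

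The stretches below are shown because they hold the letters of an AP-1 site (Plaur, Mmp13 and Mmp12) or of a variant of it that was searched because of Timp1. They were taken from RefSeq promoter windows of build GRCm38.p6, which run from 250 bases before a start to 50 after it and were found for 7 of the 9 members (not for Mmp2 and Plau). Capitals mark the letters TGACTCA, or TGAGTCA where they lie on the other strand, which form the consensus site of the transcription factor AP-1, and for Timp1 the related letters TGAGTAA. Sequences read 5′ to 3′ in the direction of transcription, and all 4 genes lie on the plus strand.
Plaur, chr7:24462383-24462482, ending just before the start: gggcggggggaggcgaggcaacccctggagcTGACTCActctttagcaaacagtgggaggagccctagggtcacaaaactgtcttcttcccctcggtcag
Mmp13, chr9:7272414-7272513, ending just before the start: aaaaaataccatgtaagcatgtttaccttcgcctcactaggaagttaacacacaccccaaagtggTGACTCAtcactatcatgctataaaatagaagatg
Mmp12, chr9:7347274-7347373, ending just before the second of its annotated starts: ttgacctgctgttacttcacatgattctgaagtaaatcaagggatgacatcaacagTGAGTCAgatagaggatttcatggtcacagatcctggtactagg
Timp1, chrX:20870181-20870210, just after the start: cggtgggtggaTGAGTAAtgcgtccaggaa
The match began at position -69 from the start in Plaur, at -35 in Mmp13, at -44 in the second Mmp12 window and at position 27 after the start in Timp1. On either strand, TGACTCA was found in windows of 3 of the 7 members, Plaur, Mmp13 and Mmp12, and in 5.95% of 27025 genes with such a window (5.20% of 32851 windows). TGAGTAA was found in 1 of the 7 members, Timp1, and in 3.09% of those genes. No match to either was found in the windows of Mmp14, Timp2 and Timp3. The letters AGGAAG, a core of ETS factor sites, were also searched and were found in 6 of the 7 members and in 38.4% of those genes. A match describes the letters only, and binding was not measured.

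Mmp14, a membrane-anchored metalloproteinase that activates the Mmp2 precursor and itself cuts collagen, was higher on every array at 1 d and 2 d. At 1 d its arrays read 9.45, 8.88, 8.56, 8.56 and 8.52, against 7.89, 7.62, 7.55, 7.64 and 7.59 in control. The 2 d arrays read 8.45, 8.54, 8.74, 8.93 and 9.05, so that arrays 4 and 5 were the highest of that time by a small margin only. No array of either time overlapped control. Mmp14 was higher than control by 1.14 ± 0.13 at 1 d (2.20-fold, limma adjusted p = 2.58e-09) and by 1.09 ± 0.13 at 2 d (2.12-fold, adjusted p = 1.61e-08). Without arrays 4 and 5 the 2 d difference was 0.92 (adjusted p = 7.04e-06), and without arrays 1 and 2 the 1 d difference was 0.89 (adjusted p = 2.86e-07).

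At 4 d the Mmp14 arrays read 8.20, 8.16, 8.00, 7.99 and 8.31 and remained above all control arrays, with a difference of 0.48 ± 0.13 (limma adjusted p = 0.0203). That call ended when 4 d array 1 (adjusted p = 0.0527), 4 d array 5 (0.0682) or control array 3 (0.0590) was left out, and for the probe set with the second highest mean (0.21, adjusted p = 0.276). At 8 d 4 of 5 arrays again lay above every control array, reading 7.92, 8.11, 8.27, 7.86 and 8.13, but the difference of 0.40 ± 0.13 did not pass (adjusted p = 0.241). The second probe set showed smaller differences in the same direction, 0.39 ± 0.11 at 1 d (adjusted p = 0.00223) and 0.38 ± 0.11 at 2 d (adjusted p = 0.00361). The remaining set, below the table median, read 0.43 and 0.48 higher than control at those times and was not tested.

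Mmp2, a gelatinase made mainly by stromal cells and activated by Mmp14, was the one member called lower. Its 2 d arrays read 5.81, 5.92, 6.12, 5.97 and 5.96, against 6.31, 6.22, 6.23, 6.14 and 6.38 in control. All 2 d arrays were below all control arrays, though by little, and the gap between the nearest arrays was smaller than the spread within either group. Mmp2 fell by 0.30 at 2 d (difference -0.30 ± 0.09, limma adjusted p = 0.00918), and the difference was the same without arrays 4 and 5 (-0.30, adjusted p = 0.0338). The second Mmp2 probe set, below the table median and not tested, read 4.87, 5.12, 5.03, 4.82 and 5.41 at 2 d, overlapping control, with a difference of -0.14. The 1 d difference was -0.23 ± 0.09 (adjusted p = 0.0336). It was no longer called without 1 d arrays 1 and 2 together (-0.12, adjusted p = 0.341), without either of them alone (0.0798 and 0.123), without control array 1 or 5 (0.0660 and 0.0840), or under either other array scaling (0.0611 and 0.102).

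At 4 d Mmp2 read 6.36, 6.53, 6.32, 6.52 and 6.36, above every 2 d array, and 4 d minus 2 d was 0.46 ± 0.09 (limma adjusted p = 0.000159). Against control the 4 d difference was 0.16 ± 0.09 (adjusted p = 0.352). The second probe set read 5.46, 5.84, 5.61, 5.75 and 5.79 at 4 d, against 5.24, 4.93, 5.20, 5.34 and 5.24 in control. All of those 4 d arrays lay above all control arrays, and the mean over both probe sets was called higher at 4 d (0.33, adjusted p = 0.00397). Direction at 4 d was the same for both probe sets, and neither passed a test at that time on its own, the second because it was not tested.

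Plaur, the cell-surface receptor that concentrates urokinase, was the one member called at 8 h. Its 8 h arrays read 6.99, 6.73, 7.69, 6.80 and 7.78, against 6.39, 6.23, 6.34, 6.31 and 6.10 in control. Arrays 3 and 5 stood above the other arrays of that time, and no 8 h array overlapped control. Over all genes arrays 3 and 5 at 8 h correlated at 0.993 with each other, against 0.980 to 0.986 with the other 8 h arrays. Mmp13 was also highest at 8 h on array 5 (5.27), and array 3 (3.97) was the next highest. Plaur was higher than control by 0.92 ± 0.15 at 8 h (1.90-fold, limma adjusted p = 3.59e-06). With each 8 h or control array left out in turn this difference ran from 0.78 to 1.04. It was not fitted without arrays 3 and 5 together. At 2 h Plaur differed by 0.08 ± 0.15 (adjusted p = 0.730), and 8 h minus 2 h was 0.84 ± 0.15 (adjusted p = 3.00e-05).

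At 1 d the Plaur arrays read 6.77, 6.25, 6.80, 7.08 and 7.13. All except array 2 exceeded every control array, and the difference was 0.53 ± 0.15 (limma adjusted p = 0.00400), or 0.73 (adjusted p = 0.000348) without arrays 1 and 2. With the Gapdh measure of RNA quality described below as a covariate it was 0.30 (adjusted p = 0.146). The drop of 1 d minus 8 h, -0.39 ± 0.15, was barely called (adjusted p = 0.0486), and it was not called without 8 h array 3 (adjusted p = 0.195) or 5 (0.227) or without 1 d array 1, 2 or 3 (0.0755, 0.214 and 0.0723). At 2 d the arrays read 6.31, 6.26, 6.48, 6.88 and 6.84, with arrays 4 and 5 again high, and the difference was 0.28 ± 0.15 (adjusted p = 0.145), or 0.08 (adjusted p = 0.767) without them. From 4 d to 8 d the difference was at most 0.05, and at 16 d it was 0.17 ± 0.15.

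Plau, the urokinase that Plaur binds, stayed below the table median on all arrays and was not tested. Its 1 d arrays read 4.66, 5.06, 4.97, 5.05 and 4.93, against 5.05, 5.20, 5.41, 5.29 and 5.12 in control. The 2 groups overlapped, and the means differed by -0.28. With the filter dropped, the limma adjusted p was 0.00902 at 1 d and 0.0478 at 2 d (difference -0.22). The second Plau probe set, also below the median, read 0.17 higher than control at 2 d, so the direction at that time was not shared by both sets.

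Timp1, the inducible inhibitor, was the one TIMP whose sole probe set was called. At 2 d its arrays read 6.32, 6.35, 6.19, 7.71 and 7.26, against 5.81, 5.76, 5.67, 5.73 and 5.61 in control. At 1 d the arrays were closer together, at 6.50, 6.47, 6.63, 6.78 and 6.39. No array of either time overlapped control, and arrays 4 and 5 at 2 d exceeded every other array of 1 d and 2 d. Timp1 was higher than control by 0.84 ± 0.18 at 1 d (1.79-fold, limma adjusted p = 0.000177) and by 1.05 ± 0.18 at 2 d (2.07-fold, adjusted p = 1.20e-05). Without arrays 4 and 5 the 2 d difference was 0.57 (adjusted p = 0.00330), lower than that of 1 d.

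At 4 d Timp1 read 6.03, 6.20, 5.80, 6.04 and 6.82, with array 5 apart from the rest and array 3 within the control range. The difference was 0.46 ± 0.18 (limma adjusted p = 0.128). The fall of 4 d minus 2 d, -0.59 ± 0.18 (adjusted p = 0.0122), was -0.11 (adjusted p = 0.652) without arrays 4 and 5 at 2 d. It was also not called without 2 d array 4 (-0.35, adjusted p = 0.102), 2 d array 5 (adjusted p = 0.0630) or 4 d array 3 (0.0508). At 8 d all arrays lay above all control arrays, reading 6.05, 6.19, 6.14, 5.86 and 6.14, where 2.68% of all genes tested showed such a separation in either direction. That difference, 0.36 ± 0.18, did not pass the test (adjusted p = 0.512).

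Timp2, an inhibitor that also takes part in Mmp2 activation together with Mmp14, depended on the probe set. The set with the highest mean (1450040_at) read 7.38, 7.44, 7.15, 7.35 and 7.45 at 2 d, against 7.59, 7.51, 7.43, 7.43 and 7.40 in control. These groups overlapped, and the differences were -0.19 ± 0.09 at 1 d (limma adjusted p = 0.0779), -0.12 ± 0.09 at 2 d (adjusted p = 0.312) and 0.11 ± 0.09 at 4 d (adjusted p = 0.588). It passed the F-test over all times (adjusted p = 0.0148) without being called at any single time.

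The next 3 Timp2 probe sets, all above the table median on every array, were higher at 2 d. Probe set 1433662_s_at read 6.65, 6.75, 6.62, 6.87 and 6.97 at 2 d, against 6.40, 6.17, 6.01, 6.37 and 6.20 in control. All 2 d arrays exceeded all control arrays, with a difference of 0.54 ± 0.10 (limma adjusted p = 1.93e-05). Probe set 1454677_at differed by 0.53 ± 0.14 (adjusted p = 0.00239) and 1460287_at by 0.33 ± 0.09 (adjusted p = 0.00450). The 2 d arrays of 1454677_at read 6.33, 6.41, 6.44, 6.65 and 7.39, with array 5 apart, and without that array its difference was 0.34 (adjusted p = 0.0249). Without arrays 4 and 5 the differences were 0.44 for 1433662_s_at (adjusted p = 0.00208), 0.28 for 1454677_at (0.108) and 0.26 for 1460287_at (0.0628), so only the first was still called. At 4 d the differences were 0.53 ± 0.10 for 1433662_s_at (adjusted p = 0.000186), 0.51 ± 0.09 for 1460287_at (adjusted p = 0.000136) and 0.38 ± 0.14 for 1454677_at (adjusted p = 0.0910). The mean of all Timp2 sets was called higher at 2 d (0.20, adjusted p = 0.00348) and at 4 d (0.28, adjusted p = 0.000607). At 8 h the arrays of 1460287_at ran from 6.71 to 7.05, all below those of control (7.10 to 7.26). Such a separation, in either direction, held for 32.9% of all genes tested. The remaining sets, 2 of 6, were below the table median and not tested. Which transcripts or transcript ends the sets read was not tested.

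**Figure D3:**
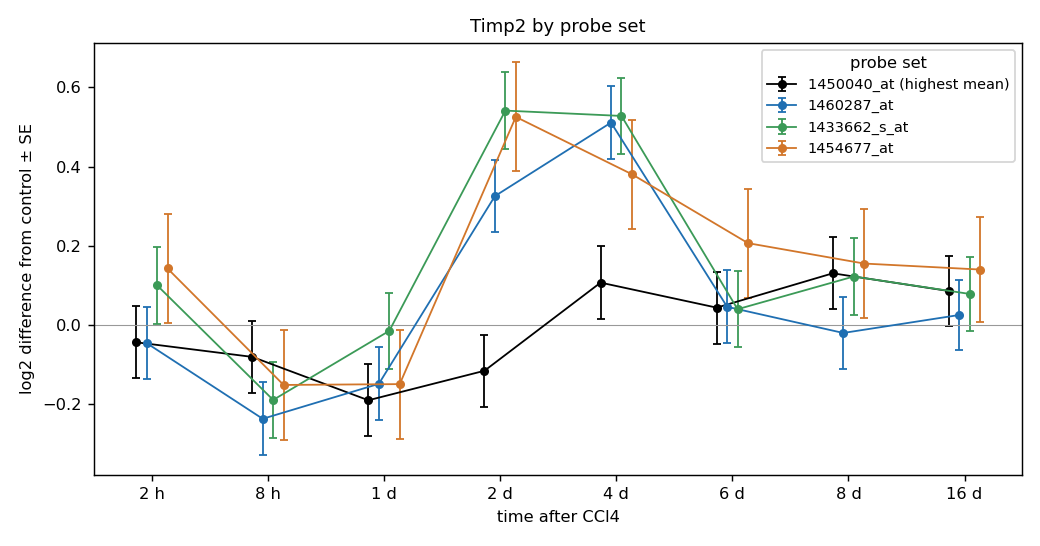
Log2 difference from control of the 4 tested Timp2 probe sets at each time after CCl4, with standard errors from the limma fit. At 2 d the set with the highest mean reads -0.12 while the other sets read 0.33 to 0.54, and from 6 d on the 4 sets lie between -0.02 and 0.21.

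Timp3, the inhibitor that stays bound to the matrix, was not called at any time or by the F-test (limma adjusted p = 0.135). Its 1 d arrays read 7.11, 6.91, 6.90, 6.74 and 6.97, against 6.80, 6.74, 6.76, 6.88 and 7.07 in control. Differences ran from -0.14 ± 0.10 at 16 d to 0.09 ± 0.10 at 2 h, and the 95% interval at 1 d ran from -0.13 to 0.28. A missed threshold does not show that the level was constant. A weak Timp3 probe set (1419088_at), above the table median on 2 arrays and not tested, read 4.48, 4.74, 4.62, 4.56 and 4.73 at 2 d, against 5.33, 5.09, 5.10, 5.05 and 5.09 in control. All 2 d arrays were lower than all control arrays on that set, with a difference of -0.51, which the stronger sets did not share (-0.04 and -0.11).

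Because the arrays at 2 d split, the members were set beside the other genes that split with them. The gap between the mean of arrays 4 and 5 and that of arrays 1 to 3 ran upward for Mmp12, Mmp13, Timp1, Mmp14 and Plaur. It also ran upward for Timp3, whose arrays 4 and 5 (6.93 and 7.08) lay above arrays 1 to 3 (6.59 to 6.83), and more weakly for Timp2, where single arrays overlapped. Mmp2 showed hardly any gap, with arrays 4 and 5 (5.97 and 5.96) inside the range of arrays 1 to 3 (5.81 to 6.12). The macrophage lysosomal glycoprotein Cd68 read 8.94 and 9.04 on arrays 4 and 5, against 7.82 to 8.14 on arrays 1 to 3. Lgals3 (galectin-3) read 12.27 and 12.10 against 8.62 to 9.98, and Gpnmb, a lysosomal membrane glycoprotein of macrophages, read 8.61 and 8.54 against 5.70 to 5.89. The fibrillar collagen gene Col1a1 read 7.20 and 7.14 against 6.11 to 6.75. Acta2, the smooth muscle actin of activated stellate cells, split less cleanly, at 9.26 and 9.55 against 7.82 to 9.11. Gpnmb and Lgals3 were picked from the marker lists after their values were seen.

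Over the whole list, the 9 genes of monocyte-derived macrophages on the array, 1 of them below the table median, averaged 8.42 and 8.41 on arrays 4 and 5 at 2 d, against 7.02 to 7.30 on arrays 1 to 3. In control the list mean was 6.26 to 6.41. It was 7.24 to 7.78 at 1 d and 7.22 to 7.77 at 4 d, while at 8 h, when Plaur was already high, it was 6.22 to 6.46. Within 8 h the list mean was 6.43 and 6.46 on arrays 3 and 5, where Plaur was highest, against 6.22 to 6.28 on the others. The hepatocyte list averaged 13.48 and 13.44 on 2 d arrays 4 and 5 against 13.80 to 13.90 on arrays 1 to 3. Other lists also lay higher on those arrays. These were Kupffer cells (8.35 and 8.88 against 7.84 to 8.10) and activated stellate cells and myofibroblasts (7.80 and 8.16 against 7.12 to 7.59). So did sinusoidal endothelium (7.78 and 7.82 against 7.52 to 7.63) and B cells (5.68 and 5.63 against 5.30 to 5.53). Apart from the neutrophil list below, the remaining lists were not higher on both arrays. Beside the counts that follow, 17.7% of all genes tested were called higher and 24.2% lower at 8 h. These shares were 25% and 25.1% at 1 d, 21.1% and 18.9% at 2 d, and 4.74% and 2.21% at 4 d. Of the 8 macrophage genes tested 4 were called higher after 1 d, 6 after 2 d and 5 after 4 d. The neutrophil gene S100a8 read 8.01 and 7.95 on arrays 4 and 5, against 6.11 to 6.61 on arrays 1 to 3. The whole neutrophil list averaged 6.68 and 6.61 on arrays 4 and 5, against 6.27 to 6.39 on arrays 1 to 3, and of its 7 genes tested 2 were called higher and 2 lower at 2 d (median -0.14), as at 1 d (median -0.16). Of the Kupffer cell genes, Adgre1 was lower than control at 8 h (-0.78) and higher at 4 d (0.82), and Clec4f was lower at 1 d (-0.64) and higher at 4 d (0.64). The Kupffer cell list as a whole had 1 gene higher and 6 lower of 8 tested at 8 h, 1 higher and 1 lower at 1 d, 3 higher and 0 lower at 2 d and 5 higher and 0 lower at 4 d. Of 8 hepatocyte genes 0 were higher, and 3 were lower at 8 h, 6 at 1 d (median -0.31) and 2 at 2 d, while Alb (albumin) was not called at any time. The part of these cells in the members' differences was not tested. In whole liver more cells of a type and more RNA per cell cannot be told apart.

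**Figure D4:**
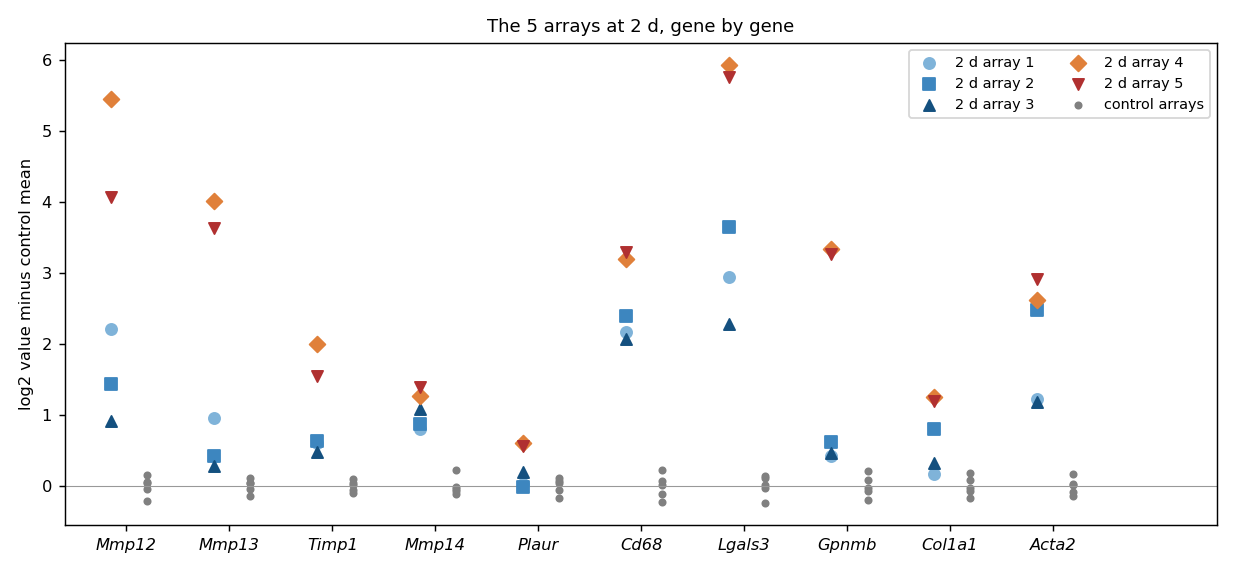
Log2 value minus the control mean for 5 members (left) and 5 marker genes (right), with each 2 d array as a coloured symbol and the control arrays as grey points to the right of each gene. Arrays 4 and 5 lie above arrays 1 to 3 for every gene drawn, by most for Mmp12, Mmp13, Lgals3 and Gpnmb, and Mmp14 is separated from control on all 5 arrays.

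RNA quality was followed by Gapdh, as the probe set near its 3′ end minus that near its 5′ end. Group means ran from 0.136 at 2 h to 0.288 at 8 d, against 0.347 ± 0.0646 (SD, n = 5) in control, so the measure was lower at every time than in control. With it as a covariate Mmp12 at 4 d (1.39, limma adjusted p = 0.0665) and Mmp2 at 1 d (adjusted p = 0.0741) were no longer called, as for Plaur at 1 d above. The calls of Mmp12, Mmp13, Mmp14 and Timp1 at 1 d and 2 d did not change side.

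The steps between neighbouring times placed the changes, counted on the probe set with the highest mean. Other Timp2 sets moved where that set was not called. The mean of 1433662_s_at went from 6.21 at 1 d to 6.77 at 2 d, and from 6.76 at 4 d to 6.27 at 6 d. From 2 h to 8 h 2 members were called, Plaur and Mmp14 (0.45 ± 0.13, limma adjusted p = 0.00776), beside 35.9% of all genes. On the second Mmp14 probe set that step was 0.25 and was not called (adjusted p = 0.0599). From 8 h to 1 d 5 members were called, beside 31.7%. In that step Mmp12 was higher by 3.31 ± 0.41, Mmp13 by 2.05 ± 0.40, Mmp14 by 0.87 ± 0.13 and Timp1 by 0.58 ± 0.18, and Plaur was lower. From 1 d to 2 d only Mmp13 was called (-1.15 ± 0.40, adjusted p = 0.0248; 32.4% of all genes), and leaving out 1 d array 4 or 2 d array 1, 2 or 3 ended that call (0.0659, 0.0953, 0.141 and 0.152, the last with a difference of -0.75). Without 2 d arrays 4 and 5 the Mmp13 step was -2.45 (adjusted p = 9.53e-11), that of Mmp12 was called as given above, and that of Plaur was called as well (-0.46, adjusted p = 0.0379). As those arrays were chosen for their high Mmp12, Mmp13 and Timp1 values, the Mmp12 and Mmp13 calls without them are descriptions only. From 2 d to 4 d 5 members were called (31.3%), with Mmp2 higher and Mmp12, Mmp13, Mmp14 (-0.61 ± 0.13) and Timp1 lower. The 2 d to 4 d calls of Mmp12, Mmp13 and Timp1 ended without arrays 4 and 5, and those of Mmp14 (-0.44, adjusted p = 0.0298) and Mmp2 (0.47, adjusted p = 0.00172) did not. On its second probe set the Mmp14 step was -0.17 and was not called (adjusted p = 0.209). From 4 d to 6 d only Mmp12 was called (-1.32 ± 0.41, adjusted p = 0.0312; 10.8%), a call that ended without any of 4 d arrays 1, 4 and 5 or 6 d arrays 1, 2 and 3 (0.0623 to 0.0855). After 6 d 0 members were called in either step, where 0.00755% and 0% of all genes were.

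For the members whose difference reached 1 on the log2 scale, the genes with the most similar course over the 9 group means were found among genes with a called difference of at least that size. Each r is a description over 9 points that share arrays and the common injury course. Mmp12 lay closest to Cd68 (r = 0.987), Anxa3 (0.987) and Ggh (0.986), where Ggh encodes a lysosomal hydrolase. Mmp13 lay closest to Ahnak (0.989), Tax1bp3 (0.987) and Fam102b (0.983). Mmp14 lay closest to Fgl1 (0.979), Cd9 (0.977) and Mtmr11 (0.975), and Timp1 to Armcx4 (0.977), F13a1 (0.972, coagulation factor XIII) and Ywhah (0.968).

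Other proteases and inhibitors of the matrix were read from 5 lists, whose counts stand beside the same shares of all genes tested. Called higher and lower were 17.7% and 24.2% of all genes at 8 h, and 25% and 25.1% at 1 d. At 2 d these shares were 21.1% and 18.9%, and at 4 d they were 4.74% and 2.21%. Of the other metalloproteinases 19 were listed, 14 were on the array and 6 were tested, with 0 higher and 1 lower at 1 d (50% of all genes called), 0 higher and 2 lower at 2 d (40.1%), and 1 higher and 0 lower at 4 d (6.95%). The one higher was Mmp19, at 0.33 ± 0.09 (limma adjusted p = 0.0108). The median difference of these 6 tested genes was -0.05 at 1 d and -0.08 at 2 d. As the members were chosen with earlier results known and include inhibitors and Plau, their medians are not a like comparison. Among 12 ADAM and ADAMTS genes tested 5 were called higher at 1 d, 8 at 2 d and 3 at 4 d, with 0 lower at those times. Adamts1, which cuts proteoglycans, was already higher at 2 h and reached 1.73 ± 0.25 at 8 h (3.31-fold, adjusted p = 1.65e-07). Its 8 h arrays ran from 6.80 to 8.20, against 5.49 to 5.75 in control. Adam10 (0.89 ± 0.13, adjusted p = 9.88e-07), Adam8 (0.75 ± 0.14) and Adamts9 (0.47 ± 0.07) were highest at 2 d, and the probe sets of Adam10 and Adamts9 differed in sign there. At 2 h Adam10 was called lower than control (-0.77 ± 0.13, limma adjusted p = 3.81e-05) and Adamts9 higher (0.32 ± 0.07).

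In the plasminogen system around Plau and Plaur, 10 further genes were tested, with 2 higher and 6 lower at 8 h, 2 higher and 5 lower at 1 d, 3 higher and 3 lower at 2 d and 2 higher and 0 lower at 4 d. The higher ones at 8 h were Anxa2 and S100a10, the subunits of a surface complex that binds plasminogen. S100a10 was higher by 2.60 ± 0.23 at 8 h (6.07-fold, limma adjusted p = 2.57e-12) and Anxa2 by 3.72 ± 0.22 at 1 d (13.1-fold, adjusted p = 1.01e-16). Anxa2 arrays at 1 d ran from 10.35 to 11.60, against 7.23 to 7.51 in control, although its 3 probe sets ranged from 0.14 to 3.72. Plgrkt, a plasminogen receptor, was higher by 1.07 ± 0.15 at 2 d (2.10-fold) and lower at 2 h (-0.59 ± 0.15, adjusted p = 0.00336). Its signal was low, with means below the table median over all arrays (5.38) and in control (5.27). Klkb1, the hepatocyte gene of plasma prekallikrein, was lower at 8 h, at -2.19 ± 0.22 (adjusted p = 6.15e-11), with arrays from 7.88 to 9.11 against 10.39 to 10.90 in control.

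Of the other inhibitors and matrix-binding regulators 7 were tested, with 0 higher and 5 lower at 8 h, 0 higher and 2 lower at 1 d, 3 higher and 1 lower at 2 d and 2 higher and 0 lower at 4 d. Tfpi2, a serine protease inhibitor of the matrix, was lower at 8 h (-1.27 ± 0.18, limma adjusted p = 1.07e-07), the time at which Timp1 had not yet been called. Sparc, a collagen-binding glycoprotein, was higher at 2 d (1.43 ± 0.17, 2.70-fold), with probe sets from -0.18 to 1.76. Serpinh1, the collagen chaperone Hsp47, was also higher at 2 d (0.89 ± 0.12), read by a probe set of the kind that can also match similar genes, and its other set read 2.27. Reck, a membrane-anchored inhibitor of metalloproteinases, was the one inhibitor called at 16 d (0.64 ± 0.15, adjusted p = 0.0251). Its 16 d arrays ran from 5.96 to 6.80, against 5.43 to 6.00 in control, so the groups overlapped slightly.

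Among 10 cathepsins and other degrading enzymes tested, 1 was higher and 3 lower at 8 h, 6 higher and 1 lower at 1 d, 7 higher and 0 lower at 2 d and 5 higher and 0 lower at 4 d. Ctsl was higher by 1.01 ± 0.11 at 8 h (2.02-fold, limma adjusted p = 2.03e-10) and by 1.00 at 1 d, and was not called at 2 d (0.02). Its other probe set read 0.46 at 8 h. Ctss, the cathepsin of antigen-presenting cells, was highest at 4 d (1.58 ± 0.22, 2.99-fold, adjusted p = 1.65e-06), as was Ctsd (0.85 ± 0.11). The 4 d arrays of Ctss ran from 10.07 to 10.51, against 8.50 to 8.87 in control. Prss23 was higher by 1.31 ± 0.22 at 2 d, with 3 probe sets from -0.04 to 1.31. Its means over all arrays (5.45) and in control (5.25) were also below the table median.

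**Figure D5:**
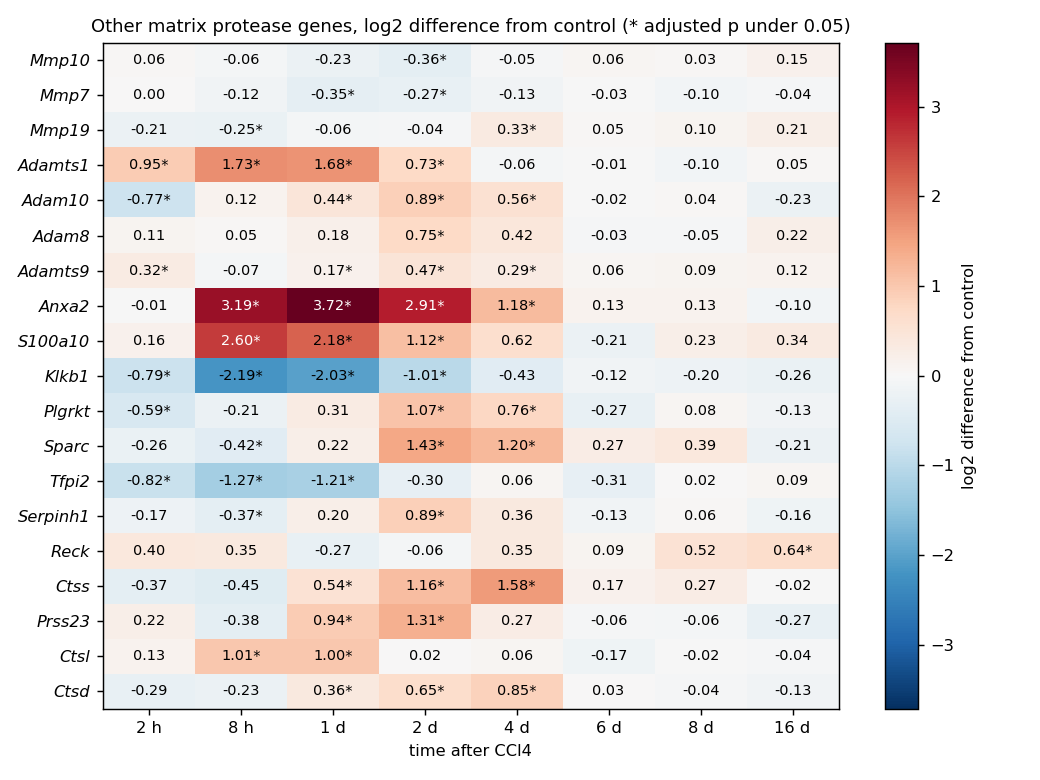
Log2 difference from control at each time for the 19 genes named from the 5 lists, grouped by list from metalloproteinases (top) to cathepsins (bottom), with an asterisk where the limma adjusted p was under 0.05. Anxa2 (3.72 at 1 d) shows the largest difference upward and Klkb1 (-2.19 at 8 h) the largest downward, and Reck is the one gene called at 16 d.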

How the data were processed

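RNA of mouse liver was measured on 46 Affymetrix arrays. The values are log2 expression values deposited by the authors, made with RMA in oligo 1.52.0, per the submitters' processing notes. RMA includes background correction, quantile normalization and a summary per probe set, so shifts common to most genes are removed and low signals are compressed. Arrays give no counts, and their number limits precision: the median standard error for 5 arrays against 5 was 0.0966 over the genes tested.

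The table held 45101 probe sets: the 34945 that named a single gene were used, and 932 naming several, 9160 naming none and 64 controls were not. Symbols were updated through Entrez IDs for 34741. A gene was tested where its probe set with the highest mean exceeded the table median (5.55823) on at least 5 arrays. One limma 3.58.1 fit (R 4.3.3; lmFit, eBayes, 37 residual degrees of freedom) of 9 group means gave 8 differences from control, 7 steps and an F-test, with Benjamini-Hochberg adjustment within each over all genes tested. The differences from control share the same 5 control arrays. The fit was tested on simulated data.

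All members are named at every time. From each of 5 lists up to 4 genes with the largest called difference are named, and for each member past 1 on the log2 scale the 3 genes with the most similar course. The members and lists were chosen with earlier results of these data known. Promoter windows and gene order are from RefSeq (GRCm38.p6). Same-numbered arrays did not deviate together (mean r = 0.0153, against -0.00358 for other numbers), and 0 of 36 pairs of groups had every r over 0.1, so the numbers were not taken as pairs. Alternatives were other scalings, filters, probe set rules, fits of the groups alone, another variance model, a replicate block, a Gapdh covariate and each array left out in turn, and fits without arrays 4 and 5 at 2 d or 1 and 2 at 1 d, the last 2 chosen after seeing the data (arrays 4 and 5 for their Mmp12, Mmp13 and Timp1 values), as were fits of the other Timp2 probe sets without arrays of 2 d. Plots used Python 3.11.15 with matplotlib 3.10.9 and pandas 2.3.3.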

Additional observations from a re-analysis of the deposited data

Results flagged for a closer look

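Of the 81 member and group combinations, 4 held an array whose distance to its nearest neighbour was large against the range of its group, where chance alone gives about 1 in 20. Timp2 read 7.88 on array 3 at 8 d, where the other arrays reached 7.54 at most. Mmp13 read 2.83 on array 1 at 2 h, below the other arrays of that time, and 3.37 on array 6 at 16 d, above the others. Mmp14 read 7.89 on array 1 in control, above the other control arrays.

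The effect against control differed between neighbouring times, by limma's test of the step, in 14 of the 56 steps tested for the members. That count includes Mmp12 and Mmp13, which passed the filter only through arrays taken at 1 d to 4 d, so it is a description only. From 2 h to 8 h 35.9% of all genes tested were called, and from 8 h to 1 d 31.7%. The share was 32.4% from 1 d to 2 d and 31.3% from 2 d to 4 d. It was 10.8% from 4 d to 6 d and at most 0.00755% after 6 d. For Mmp12 the effect grew by 3.31 from 8 h to 1 d. It changed by -1.34 from 2 d to 4 d and by -1.32 from 4 d to 6 d. For Mmp13 it grew by 2.05 from 8 h to 1 d and changed by -1.15 from 1 d to 2 d and by -1.30 from 2 d to 4 d. For Mmp14 the changes were 0.45 from 2 h to 8 h, 0.87 from 8 h to 1 d and -0.61 from 2 d to 4 d. For Timp1 they were 0.58 from 8 h to 1 d and -0.59 from 2 d to 4 d, for Mmp2 0.46 from 2 d to 4 d, and for Plaur 0.84 from 2 h to 8 h and -0.39 from 8 h to 1 d.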

How the results depend on the processing

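For the members, 28 differences from control or between neighbouring times were called, with 559 values under alternatives. Of these, 503 kept direction and, where tested, the call, 55 lost the call and 1 turned. The 503 include values of weak Mmp2 and Mmp14 probe sets that kept direction but were not tested. Of the 28 differences, 15 kept their call under every alternative that was tested for them. The one that turned was Mmp13 from 2 d to 4 d without arrays 4 and 5 at 2 d (0.00598). Timp2 at 2 d, not called, was called higher from other probe sets (0.33, 0.54 and 0.53) and from the mean of all sets (0.20), also from the other sets without array 5 at 2 d (0.28, 0.49 and 0.34), and without arrays 4 and 5 from 1 set (0.44). The cause was not tested. Low signal limits Mmp12, Mmp13 and Plau.

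Members called were 2 at 8 h under quantile or cyclic loess scaling, against 1. With the filter at 23 arrays, which removes Mmp12 and Mmp13, they were 3 at 2 d (5), 1 at 4 d (2), 3 from 8 h to 1 d (5), 0 from 1 d to 2 d (1), 3 from 2 d to 4 d (5) and 0 from 4 d to 6 d (1). With only the groups compared in the fit they were 4 at 8 h, 0 from 1 d to 2 d, 2 from 2 d to 4 d and 3 from 4 d to 6 d. The mean of all probe sets gave 2 from 1 d to 2 d and 3 from 4 d to 6 d, cyclic loess 2 from 4 d to 6 d, and the Gapdh covariate 1 at 4 d and 2 from 4 d to 6 d. Without arrays 4 and 5 they were 3 from 1 d to 2 d and 2 from 2 d to 4 d, and without arrays 1 and 2 at 1 d they were 2 from 1 d to 2 d. Leaving out 1 array at a time gave 1 to 2 at 8 h, 0 to 2 at 4 d, 0 to 2 from 1 d to 2 d, 2 to 6 from 2 d to 4 d and 0 to 2 from 4 d to 6 d.

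All genes called with only the groups compared were 1622 at 4 d (920), 0 at 6 d (3), 11 at 8 d (19), 2746 from 8 h to 1 d (4194), 2387 from 1 d to 2 d (4283) and 0 from 6 d to 8 d (1). The mean of all probe sets gave 1 at 6 d, 99 at 16 d (200) and 0 from 6 d to 8 d. Cyclic loess gave 91 at 16 d and 2 from 6 d to 8 d, quantile scaling 3 from 6 d to 8 d, and leaving out arrays 4 and 5 gave 2639 from 2 d to 4 d (4139). With the replicate block, 50 were called at 16 d, and it changed the call of 0 members. Leaving out 1 array gave 1 to 12 at 6 d, 6 to 42 at 8 d, 8 to 331 at 16 d, 0 to 7 from 6 d to 8 d and 0 to 5 from 8 d to 16 d. Scaling moved the median of all genes by less than 0.1. The share of calls that were higher was 24.3% at 2 h, or 37.8% and 47.6% under quantile and loess scaling. It was 27.5% at 16 d (53.9% and 47.3%), 65.6% from 8 h to 1 d (54.7% and 54.1%), and under quantile scaling 41.6% at 2 d (52.7%), 55.2% from 2 d to 4 d (42.8%) and 42.9% from 4 d to 6 d (32.5%).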
